A study of Mus musculus with 4 samples.

Results

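Cytochrome c oxidase, complex IV of the respiratory chain, passes electrons from cytochrome c to oxygen and pumps protons across the inner mitochondrial membrane. Several of its nuclear-encoded subunits exist as a pair of isoforms made by separate genes, one found in nearly all tissues and one found in a few. The part described here is a set of 9 such genes among the 19030 genes listed in an RNA-seq table of ingWAT, the white fat depot under the skin of the groin. *Cox6a2*, *Cox7a1* and *Cox8b* are the isoforms known from heart and skeletal muscle, of which *Cox7a1* and *Cox8b* are also known from brown adipose tissue (BAT), and *Cox4i2* is known from lung and from pericytes. *Cox4i1*, *Cox6a1*, *Cox7a2* and *Cox8a* are their ubiquitous partners, and *Cox7a2l* is a ubiquitous relative of *Cox7a2* known for its part in joining complex IV to complex III. The genes were taken by symbol, 4 tissue-specific and 5 ubiquitous, and all 9 were listed. They were picked with their FPKM in Ctrl and cKO libraries already known, so their differences between the genotypes are given as a description without a test.

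The tissue came from C57BL/6 mice aged 3 months and kept in the cold at 4°C. The cold challenge that the paper describes used males, lasted for weeks and began at a milder temperature before 4°C. Ctrl mice carried *Oct3* (*Slc22a3*, an organic cation transporter that takes up norepinephrine) with its exon 2 flanked by loxP sites (Oct3 fl/fl). The cKO mice carried the same alleles with Adiponectin-Cre, a transgene driven by an adipocyte promoter. This leaves *Oct3* intact in the other cells of the depot. There were 2 libraries of each genotype, all 4 at 4°C, so the effect of cold itself was not measured. The labels do not say how many mice each library holds, and p-values measure only the spread between these libraries, which may be technical. Expression is given as FPKM, the reads of a gene divided by transcript length and library size, which is a level per length. A comparison of FPKM between genes rests on these lengths, most of all for short transcripts. For the genotypes, limma was fitted to log2(FPKM + 1) of 12658 genes whose FPKM averaged 1 or more, with Benjamini-Hochberg adjustment over all of these genes. In this fit 12.0% of the genes were called higher and 13.8% lower in cKO at an adjusted p under 0.05. Both cKO libraries lay above both Ctrl libraries for 31.9% of the genes and below both for 34.6%.

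The estimated depth was 18200000 and 18050000 reads in the Ctrl libraries, and 17475000 and 17450000 reads in the cKO libraries. *Slc22a3* had an FPKM of 16.95 and 17.68 in Ctrl and of 9.07 and 9.5 in cKO (log2 fold change -0.83, limma adjusted p = 0.000439). Adipocyte markers summed to 28887 and 27562 FPKM in Ctrl and to 21897 and 22000 in cKO, and 3 of these 6 genes were called lower. A list of 12 skeletal muscle markers, mostly of fast fibres, stood apart. All 10 of the 12 that could be tested were lower in cKO, and the list summed to 2507 and 1685 FPKM in the Ctrl libraries against 10.7 and 8.62 in the cKO libraries. The muscle myosin gene *Myh4* had 117.5 and 82.2 FPKM in Ctrl and 0.34 and 0.14 in cKO. A further list of 5 markers of slow muscle fibres, of which 2 could be tested, was low throughout and did not move this way. It summed to 1.87 and 3.02 FPKM in Ctrl and to 3.87 and 3.46 in cKO, and *Myl3* was called higher. Of 6 heart muscle markers, 5 averaged under 1 FPKM, with *Myh6* at 0 to 0.02 FPKM, and *Myl4* had 5.11 to 6.45 FPKM over the 4 libraries. All 8 brown and beige adipocyte markers were higher in cKO, and they summed to 789 and 1009 FPKM in Ctrl against 3092 and 2626 in cKO. All 6 B and T cell markers were called higher as well, at a summed level 1.61 times that of Ctrl, whereas all 3 fibroblast progenitor markers and all 3 Schwann cell markers were called lower, with sums 2.26 and 2.82 times higher in Ctrl. Endothelial markers (0 higher and 2 lower of 5) and macrophage markers (1 higher and 2 lower of 4) were called in part, and 3 listed keratinocyte and epithelial markers summed to under 1 FPKM in every library. The part of these cell types in the values below was not tested. In bulk tissue, fewer cells of a type and less RNA per cell cannot be told apart. Whether muscle was taken along with the Ctrl tissue was not tested either.

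*Cox7a1* and *Cox8b* stand on mouse chromosome 7 and gave the highest levels among the tissue-specific isoforms. Their promoters are shown because these 2 genes had the largest positive differences between the genotypes, and those of *Cox7a2* and *Cox8a* because these are their ubiquitous partners. Each sequence holds the 250 bases before the RefSeq transcription start (GRCm38.p6), 5′ to 3′ on the strand of the gene, with CG dinucleotides in capitals. The positions are chr7:30183921-30184170 on the plus strand for *Cox7a1*, chr7:140900447-140900696 on the minus strand for *Cox8b*, chr9:79759854-79760103 on the minus strand for *Cox7a2* and chr19:7217617-7217866 on the minus strand for *Cox8a*.
Cox7a1: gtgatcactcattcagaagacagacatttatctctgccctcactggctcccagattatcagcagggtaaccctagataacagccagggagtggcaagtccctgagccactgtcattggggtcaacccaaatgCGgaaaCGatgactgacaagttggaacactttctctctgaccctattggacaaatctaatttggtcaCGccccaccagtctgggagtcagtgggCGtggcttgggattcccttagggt
Cox7a2: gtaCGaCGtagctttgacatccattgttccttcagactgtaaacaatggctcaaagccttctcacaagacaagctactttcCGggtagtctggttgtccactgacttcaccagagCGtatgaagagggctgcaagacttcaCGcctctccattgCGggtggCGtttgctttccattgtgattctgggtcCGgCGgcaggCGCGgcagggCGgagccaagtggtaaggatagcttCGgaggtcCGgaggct
Cox8b: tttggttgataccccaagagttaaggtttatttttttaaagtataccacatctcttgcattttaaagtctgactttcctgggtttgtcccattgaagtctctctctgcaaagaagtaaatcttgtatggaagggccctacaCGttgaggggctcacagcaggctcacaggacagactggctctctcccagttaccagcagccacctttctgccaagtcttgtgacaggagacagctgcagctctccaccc
Cox8a: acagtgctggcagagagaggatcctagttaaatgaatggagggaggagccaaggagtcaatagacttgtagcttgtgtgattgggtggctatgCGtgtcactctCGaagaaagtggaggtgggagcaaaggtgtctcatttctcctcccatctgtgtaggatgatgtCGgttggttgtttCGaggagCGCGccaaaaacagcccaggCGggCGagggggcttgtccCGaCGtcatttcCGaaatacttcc

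The printed stretch held 4 CG dinucleotides for *Cox7a1* and 1 for *Cox8b*, against 14 for *Cox7a2* and 11 for *Cox8a*. In the full window, which adds the 50 bases after the start, the counts were 7 for *Cox7a1* and 2 for *Cox8b*, and 32, 20, 19 and 19 for the ubiquitous *Cox6a1*, *Cox7a2*, *Cox7a2l* and *Cox8a*. The median over the 32851 promoter windows of the table was 7, so the windows of the 4 ubiquitous genes lay above it, that of *Cox7a1* at it and that of *Cox8b* below it. The promoters of *Cox4i1*, *Cox4i2* and *Cox6a2* were not among those matched, which left 6 of the 9 genes.

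Letters of 6 motifs were searched on both strands of the 6 windows. The extended site of estrogen-related receptors, TCAAGGTCA, is held by 0.423% of all windows and by none of the 6. The direct repeat read by PPAR and RXR, AGGTCANAGGTCA, which shares AGGTCA with the first motif, is held by 0.0396% of all windows and by none of the 6. The cyclic AMP response element TGACGTCA is held by 1.79% of all windows and by none of the 6, and its core TGACG, which lies within it, by 20.8% of all windows and by *Cox8a* alone, on the minus strand 21 to 17 bases before the start. The NRF-1 core GCATGCGC is held by 2.71% of all windows and by *Cox6a1* alone, where a match on each strand overlapped between 162 and 153 bases before the start. TATAAA is held by 13.6% of all windows and by *Cox8b* alone, after its start. A match of letters is a description of these windows and not a binding site.

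The tissue-specific genes lie, in GRCm38 by GENCODE, at chr7:30184144-30186078 for *Cox7a1* (Entrez gene 12865), chr7:140898945-140900446 for *Cox8b* (12869), chr7:128205435-128206387 for *Cox6a2* (12862) and chr2:152754173-152765037 for *Cox4i2* (84682). Their ubiquitous partners lie on chromosomes 9 (*Cox7a2*), 19 (*Cox8a*), 5 (*Cox6a1*) and 8 (*Cox4i1*), and *Cox7a2l* on chromosome 17.

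The order of the levels differed between the genotypes. In Ctrl ingWAT the mean FPKM fell from *Cox6a1* (1438 ± 38.8, SD, n = 2) over *Cox8a* (1178 ± 11.8), *Cox4i1* (1013 ± 35.0), *Cox8b* (637 ± 17.5), *Cox7a2* (269 ± 10.4), *Cox7a1* (197 ± 36.8), *Cox7a2l* (142 ± 0.127) and *Cox6a2* (16.1 ± 4.16) to *Cox4i2* (6.36 ± 0.184). No pair of neighbours in this order had overlapping libraries. In cKO ingWAT *Cox6a1* (1997 ± 218) was again first, and *Cox8a* (1327 ± 54.3), *Cox4i1* (1305 ± 89.3) and *Cox8b* (1204 ± 164) followed with overlapping libraries. Below them *Cox7a1* (548 ± 51.8) lay above *Cox7a2* (332 ± 14.1) and *Cox7a2l* (167 ± 10.5), and *Cox4i2* (6.61 ± 0.771) lay above *Cox6a2* (1.2 ± 0.0707). Thus, by FPKM, *Cox7a1* and *Cox7a2*, and *Cox4i2* and *Cox6a2*, stood in opposite order in the 2 genotypes.

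**Figure D1:**
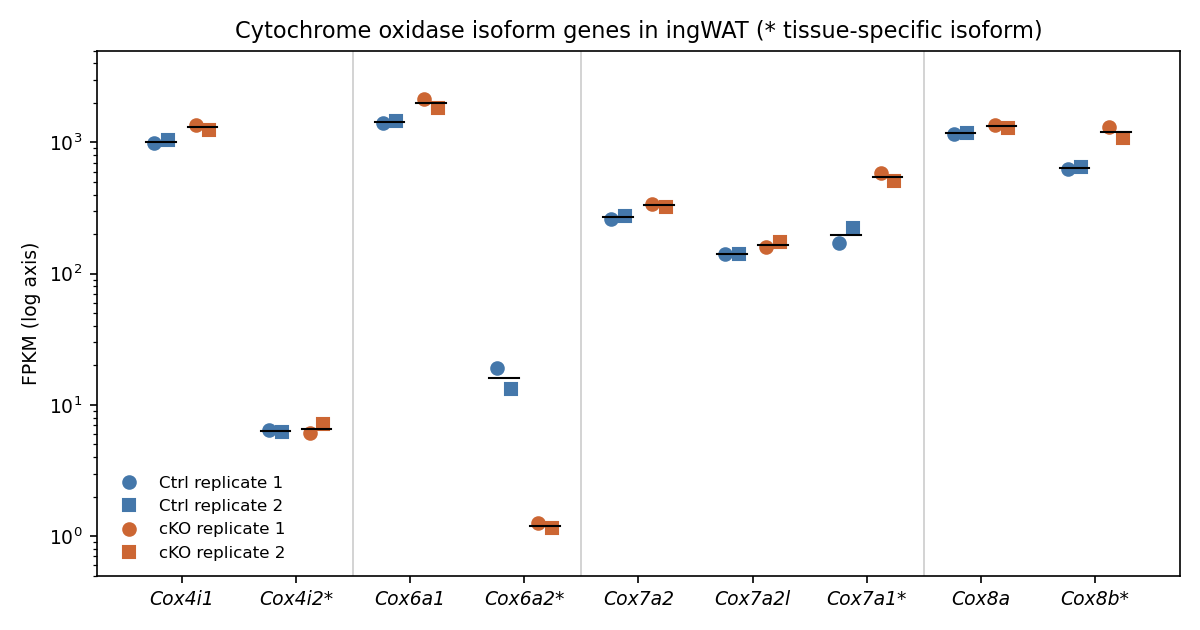
FPKM of the 9 isoform genes on a log axis, 1 point per library (Ctrl blue, cKO orange, circles replicate 1, squares replicate 2), with the mean of each genotype as a line and tissue-specific isoforms marked by an asterisk. Both cKO libraries lie above both Ctrl libraries for 7 genes (31.9% of all genes tested) and below both for *Cox6a2* (34.6%). For *Cox4i2*, 1 cKO library lies below and 1 above both Ctrl libraries.

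Among the tissue-specific isoforms, *Cox7a1* and *Cox8b* were higher in cKO, *Cox6a2* was lower and *Cox4i2* overlapped between the genotypes. *Cox7a1*, which encodes a small membrane-spanning subunit, had an FPKM of 170.5 and 222.6 in the Ctrl libraries and of 584.5 and 511.3 in the cKO libraries. The cKO mean was 2.79 times that of Ctrl, and the gap between the genotypes was far wider than the gap between libraries of either one. On the log2(FPKM + 1) scale the difference was 1.48 (standard error 0.128). *Cox8b*, which encodes a further small membrane subunit, had an FPKM of 624.4 and 649.1 in Ctrl and of 1320 and 1088 in cKO. Its cKO mean was 1.89 times that of Ctrl, a log2 difference of 0.91 (standard error 0.102), and the groups did not overlap. The cKO libraries of *Cox8b* lay further apart than the Ctrl libraries.

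*Cox6a2*, the muscle form of a subunit with a regulatory role in complex IV, had an FPKM of 19.0 and 13.2 in Ctrl and of 1.25 and 1.15 in cKO. These values stood for about 223 and 153 reads in Ctrl and for about 14 and 13 in cKO. Exact Poisson 95% intervals, which cover counting error only, ran from 16.6 to 21.7 and from 11.2 to 15.4 FPKM in Ctrl, and from 0.68 to 2.09 and from 0.616 to 1.98 FPKM in cKO. The intervals of the Ctrl libraries did not meet, nor did any Ctrl interval meet a cKO interval. The Ctrl mean was 13.4 times the cKO mean, and the log2 difference on the FPKM + 1 scale, which understates changes of low genes, was -2.94 (standard error 0.155). Skeletal muscle markers moved with it, at a summed level 217 times higher in Ctrl than in cKO. Both Ctrl libraries held these markers, so no single library could be left out to remove them, and their part in the difference of *Cox6a2* was not tested.

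*Cox4i2*, the form of subunit 4 known to respond to low oxygen, had an FPKM of 6.49 and 6.23 in Ctrl and of 6.06 and 7.15 in cKO. About 73 to 86 reads stood behind each value, and the exact Poisson 95% intervals of all 4 libraries overlapped, from 4.74 to 7.6 FPKM in the lowest library and from 5.7 to 8.81 in the highest. The log2 difference was 0.04 (standard error 0.092). The 9 smooth muscle and pericyte markers summed to 185 FPKM in both Ctrl libraries and to 163 and 170 in cKO, with 1 called higher and 3 lower.

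The 5 ubiquitous genes all lay higher in both cKO libraries (31.9% of all genes tested), by less than *Cox7a1* and *Cox8b*. *Cox6a1*, the ubiquitous partner of *Cox6a2*, had an FPKM of 1410 and 1465 in Ctrl and of 2151 and 1842 in cKO, a log2 difference of 0.47 (standard error 0.0997). *Cox4i1*, which encodes the common form of the largest nuclear subunit, had an FPKM of 988.1 and 1038 in Ctrl and of 1369 and 1242 in cKO, a log2 difference of 0.36 (standard error 0.083). Their cKO means were 1.39 and 1.29 times those of Ctrl. *Cox7a2* had an FPKM of 261.7 and 276.4 in Ctrl and of 341.5 and 321.5 in cKO, a log2 difference of 0.30 (standard error 0.065). For *Cox7a2l* the values were 142.3 and 142.4 in Ctrl and 159.2 and 174 in cKO, a log2 difference of 0.22 (standard error 0.064). *Cox8a* had the smallest difference of the 5, with 1170 and 1187 in Ctrl against 1365 and 1289 in cKO, which is 0.17 on the log2 scale (standard error 0.077) and 0.10 with quantile normalization.

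Of the 9 genes, 6 were called higher (12.0% of all genes tested) and 1, *Cox6a2*, lower (13.8%), and 7 lay above in both cKO libraries (31.9%). The genes were picked on this contrast, so nothing is read from these counts. *Cox8a* and *Cox4i2* were the 2 genes without a call. The median log2 difference was 0.30 over the 9 genes and -0.006 over all genes tested.

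**Figure D2:**
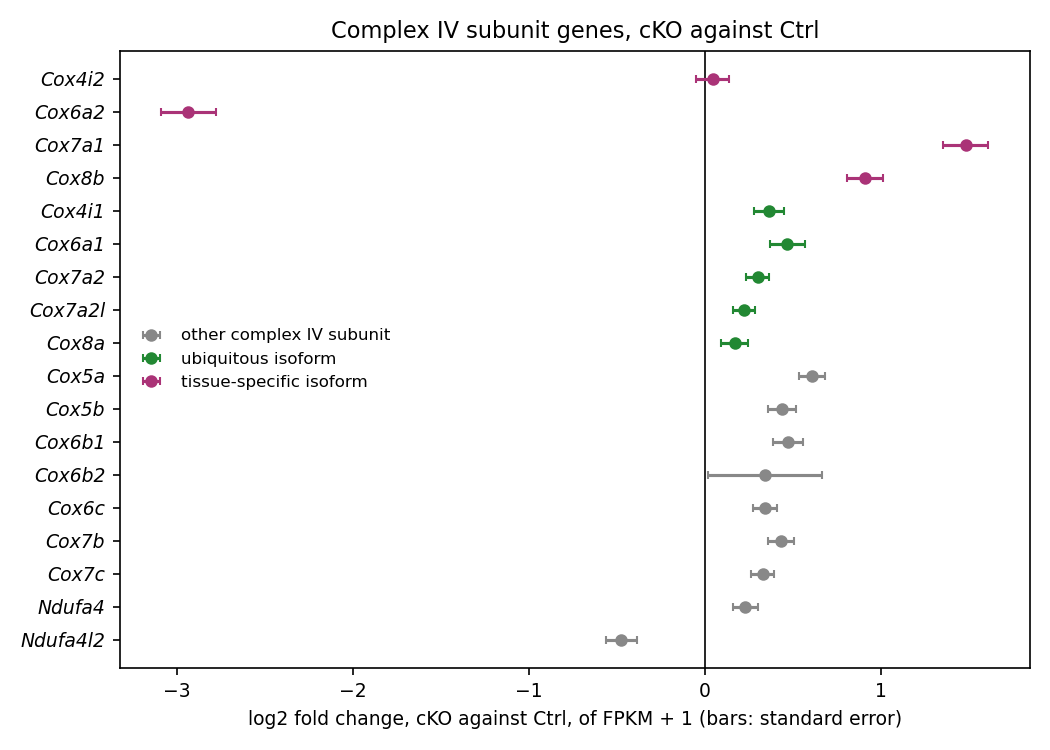
Log2 fold change of FPKM + 1, cKO against Ctrl, with its standard error, for tissue-specific isoforms (purple), ubiquitous isoforms (green) and other complex IV subunit genes (grey). The ubiquitous isoforms lie between 0.17 and 0.47, *Cox7a1* (1.48) and *Cox8b* (0.91) lie above that range, and *Cox4i2* (0.04) and *Cox6a2* (-2.94) lie below it.

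The balance within each pair was taken as the FPKM of the tissue-specific isoform as a share of the summed FPKM of both. *Cox7a1* made up 39.4% and 44.6% of the *Cox7a1* and *Cox7a2* sum in the Ctrl libraries and 63.1% and 61.4% in the cKO libraries. By FPKM it was the lesser isoform of the pair in both Ctrl libraries and the greater in both cKO libraries. The log2 ratio was -0.47 ± 0.216 (SD, n = 2) for Ctrl and 0.72 ± 0.075 (SD, n = 2) for cKO. In reads, *Cox7a1* had about 3646 and 3185 in the cKO libraries and *Cox7a2* about 3718 and 3495. The place of *Cox7a1* above *Cox7a2* in cKO thus rests on the division by transcript length (393 against 659 bases). With *Cox7a2l* added to the ubiquitous side, the share of *Cox7a1* was 29.7% and 34.7% in Ctrl and 53.9% and 50.8% in cKO. *Cox8b* made up 34.8% and 35.4% of the *Cox8b* and *Cox8a* sum in Ctrl and 49.1% and 45.8% in cKO, so that it neared *Cox8a* without passing it. The log2 ratio of *Cox8b* to *Cox8a* was -0.89 ± 0.025 in Ctrl and -0.15 ± 0.138 in cKO.

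In the other 2 pairs the ubiquitous gene gave almost all of the level in every library. *Cox6a2* was 1.33% and 0.89% of the sum with *Cox6a1* in Ctrl and 0.0581% and 0.0624% in cKO. The log2 ratio of *Cox6a2* to *Cox6a1* was -6.51 ± 0.416 in Ctrl and -10.7 ± 0.0729 in cKO, a difference of -4.19. *Cox4i2* was 0.653% and 0.597% of the sum with *Cox4i1* in Ctrl and 0.441% and 0.572% in cKO. The shares of *Cox4i2* did not overlap between the genotypes although its own FPKM did, and the lower of the Ctrl shares was close to the higher of the cKO shares. The Poisson intervals of the *Cox4i2* FPKM overlapped in all libraries, so the gap between those 2 shares lies within counting error.

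**Figure D3:**
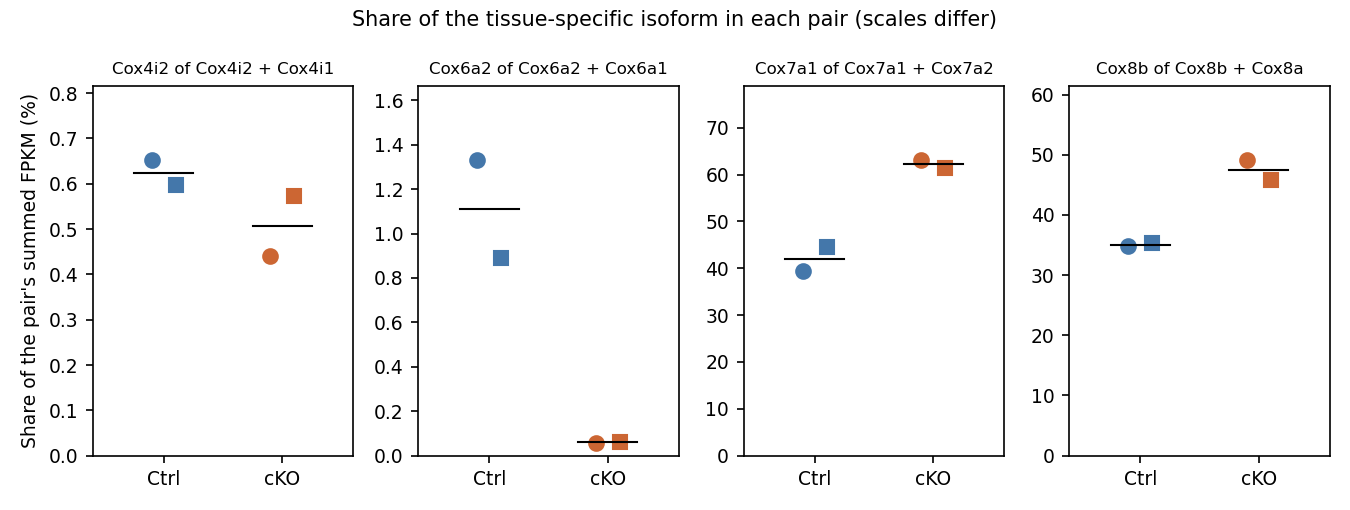
Share of the tissue-specific isoform in the summed FPKM of its pair, in percent, in each library (Ctrl blue, cKO orange, circles replicate 1, squares replicate 2), with the mean of each genotype as a line and a separate scale for each pair. *Cox7a1* passes from 42.0% to 62.3% and *Cox8b* from 35.1% to 47.5%, while *Cox4i2* and *Cox6a2* stay under 2% of their pairs.

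The sum of each pair was higher in both cKO libraries. It was 1.29 times as high in cKO as in Ctrl for *Cox4i1* and *Cox4i2*, 1.37 times for *Cox6a1* and *Cox6a2*, 1.39 times for *Cox8a* and *Cox8b* and 1.89 times for *Cox7a1* and *Cox7a2*. The last sum was 432.2 and 499 FPKM in Ctrl and 926 and 832.8 in cKO. With *Cox7a2l* included the ratio was 1.72. *Cox7a1* gave 84.9% of the difference in the sum with *Cox7a2*, and *Cox8b* gave 79.2% of that in the sum with *Cox8a*. For the pair of *Cox4i1*, the ubiquitous gene differed by 293 FPKM and *Cox4i2* by 0.245 FPKM, and for the pair of *Cox6a1*, the ubiquitous gene was higher by 559 FPKM while *Cox6a2* was lower.

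A second list held 11 nuclear-encoded complex IV subunit genes and paralogs that are not among the 9 isoform genes. Of these, 9 could be tested, and 6 of them rose (12.0% of all genes) and 1 fell (13.8%), with a median log2 fold change of 0.34. With quantile normalization 3 of them rose, and without Ctrl replicate 1 or 2 the counts were 1 and 2, with 0 that fell. *Cox5a*, next to the catalytic core, had the largest rise, from 367.5 and 404.7 FPKM in Ctrl to 599.3 and 579.6 in cKO (log2 fold change 0.61, standard error 0.073, limma adjusted p = 0.00161). *Cox6b1* (0.47, limma adjusted p = 0.00808), *Cox5b* (0.44, limma adjusted p = 0.00814), *Cox7b* (0.43, limma adjusted p = 0.00612), *Cox6c* (0.34, limma adjusted p = 0.012) and *Cox7c* (0.33, limma adjusted p = 0.0124) rose as well. The cKO means of these 6 genes were 1.26 to 1.53 times those of Ctrl. The pair sums of *Cox4i1*, *Cox6a1* and *Cox8a* with their partners lay within that range of ratios and that of *Cox7a1* and *Cox7a2* lay above it.

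*Ndufa4*, a subunit once assigned to complex I, had 708.8 and 743.7 FPKM in Ctrl and 866.1 and 837.4 in cKO and did not pass the test (log2 fold change 0.23, limma adjusted p = 0.0527). *Ndufa4l2*, its relative known as a target of hypoxia-inducible factor, fell from 13.4 and 12.2 FPKM to 9.6 and 8.25 (log2 fold change -0.48, limma adjusted p = 0.0089). *Cox6b2*, known from testis, had 1.34 and 2.87 FPKM in Ctrl and 4.23 and 1.78 in cKO, with overlapping genotypes. *Cox7b2* was listed at 0 in 3 libraries and at 0.11 in the other, and *Cox8c* was not listed.

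Of 24 genes for assembly factors of complex IV, which insert heme and copper or mature the subunits, 23 could be tested, and 8 rose (12.0% of all genes) and 0 fell (13.8%) by limma. At an unadjusted p under 0.05 the counts were 9 higher (18.3% of all genes) and 0 lower (20.2%), and no other tool was run. Their median log2 fold change was 0.14. The largest rises were those of *Sco2*, a copper chaperone, from 4.08 and 4.15 to 6.64 and 6.49 FPKM (log2 fold change 0.56, limma adjusted p = 0.00268), and of *Cox17*, which carries copper to complex IV, from 158.1 and 177.2 to 261.4 and 221.7 FPKM (0.52, limma adjusted p = 0.0078). *Cox10*, an enzyme of heme a synthesis, rose by 0.43 on the log2 scale (limma adjusted p = 0.0107), while its partner enzyme *Cox15* had a log2 fold change of 0.10 and *Surf1* of 0.13, neither past the test. Without Ctrl replicate 1 none of the assembly factors passed, and without Ctrl replicate 2, 5 did.

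The libraries of a single genotype also differed, which is a measure that the choice of genes did not use. Between the Ctrl libraries, *Cox6a2* was lower in replicate 2, with a log2 ratio of replicate 2 to replicate 1 of -0.53, and the summed skeletal muscle markers had a ratio of -0.57. *Cox7a1* was higher in replicate 2, with a log2 ratio of 0.38, beside 0.36 for the summed brown and beige adipocyte markers and 0.41 for *Ucp1*, the uncoupling protein of thermogenic fat. *Ucp1* is itself on that marker list and a large part of its sum, so its ratio and that of the list are not separate. *Cox8b* differed by 0.06 between the same libraries. *Cox6a2* and *Cox7a1* thus lay in opposite directions within Ctrl, and *Cox7a1* lay in the direction of *Ucp1*.

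Between the cKO libraries, the ratio was -0.19 for *Cox7a1*, -0.28 for *Cox8b*, -0.24 for the summed brown and beige adipocyte markers and -0.22 for *Ucp1*. *Cox6a2* had a ratio of -0.12 there, at about 14 and 13 reads, and the summed skeletal muscle markers had one of -0.31. *Cox6a1* had a ratio of -0.22 and *Cox4i1* of -0.14, whereas *Cox4i2* (0.24) and *Cox7a2l* (0.13) were higher in replicate 2. With 1 library on each side these ratios were not tested.

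**Figure D4:**
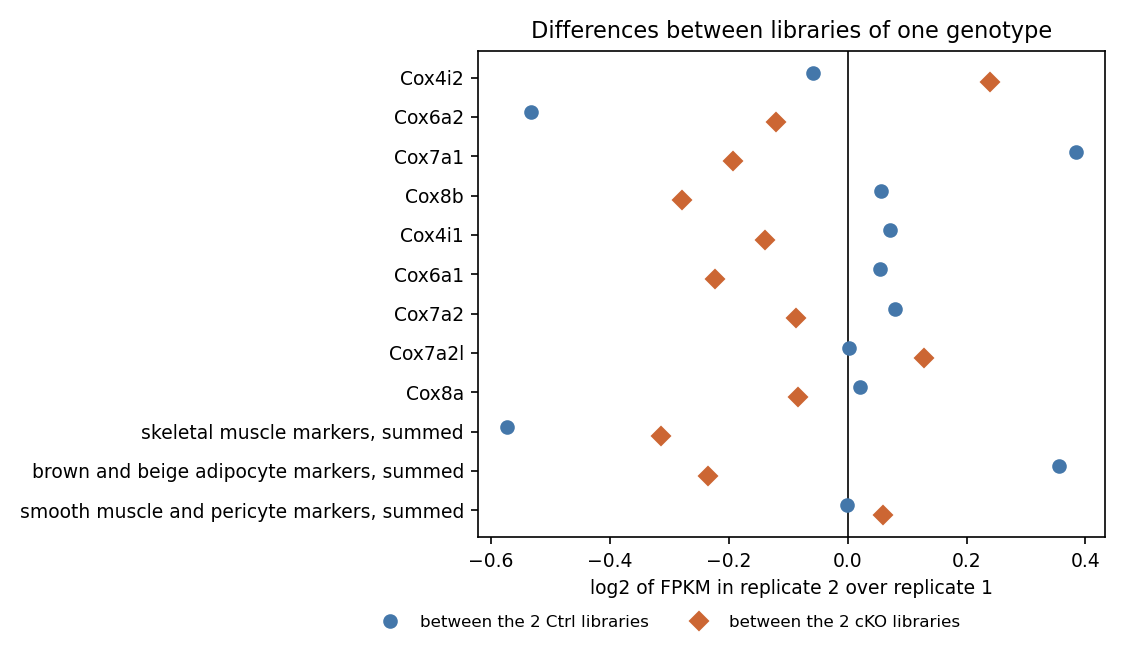
Log2 of the FPKM in replicate 2 over replicate 1 within Ctrl (blue circles) and within cKO (orange diamonds) for the 9 isoform genes and for 3 summed marker lists. In Ctrl, *Cox6a2* (-0.53) lies by the skeletal muscle markers (-0.57) and *Cox7a1* (0.38) by the brown and beige adipocyte markers (0.36).

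Per 1000 FPKM of summed skeletal muscle markers, *Cox6a2* had 7.59 and 7.81 FPKM in the Ctrl libraries, which is nearly the same ratio, and 117 and 133 in the cKO libraries. *Cox7a1* had 68.0 and 132 in the Ctrl libraries on the same scale, and *Cox8b* had 249 and 385. The part of muscle in the values of *Cox7a1* and *Cox8b*, which muscle also expresses, was not tested.

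The genes with the most similar profile were sought among 8775 genes whose FPKM averaged 5 or more, by the Euclidean distance between log2(FPKM + 1) values of the 4 libraries, each centred on its mean. For *Cox7a1* they were *Cpt1b* (distance 0.0765), *Acsl5* (0.0971) and *Fabp3* (0.11). *Cpt1b*, which brings fatty acids into mitochondria, had 38.8 and 53.0 FPKM in Ctrl and 131.5 and 115.1 in cKO. For *Cox6a2* they were *Myl1* (0.166), *Ldb3* (0.318) and *Eno3* (0.529). *Myl1*, a muscle myosin light chain, had 319.5 and 241.2 FPKM in Ctrl and 37.8 and 39.5 in cKO. For *Cox8b* they were *Ms4a4c* (0.0531), *Tmem37* (0.0607) and *Egln3* (0.087), and for *Cox4i2*, *Usf1* (0.0111), *Rpa3* (0.014) and *Slu7* (0.0189). None of these genes was shared between the 4 isoforms. The profiles hold the genotype difference on which the isoforms were picked, so these neighbours are a description and not separate support.

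The isoforms of a pair could be told apart by their reads. In GENCODE transcripts (GRCm38), none of the 9 genes shared a stretch of 50 bases, the read length, with another of the 9. Coding sequences of the pairs were 62.7% identical for *Cox4i2* and *Cox4i1*, 60.2% for *Cox7a1* and *Cox7a2*, 56.0% for *Cox6a2* and *Cox6a1* and 51.9% for *Cox8b* and *Cox8a*. The translated proteins were 48.6%, 55.4%, 51.7% and 40.8% identical in the same order. *Cox7a1* and *Cox7a2l* proteins were 34.2% identical, over a longer chain in the latter (80 against 111 residues).

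*Cox4i2*, *Cox7a1*, *Cox7a2*, *Cox8a* and *Cox8b* shared no stretch of 50 bases with any other gene. *Cox6a1* shared 12.3% of its stretches and *Cox7a2l* 19.8% with a pseudogene each, so that their levels may depend on how the authors' counting placed such reads. The same may hold for some of the other subunits that rose. *Cox7c* shared 53.0% of its stretches with other genes, *Cox5a* 32.0%, *Cox5b* 25.9% and *Cox6c* 21.1%, against 0.63% for *Cox7b* and 0% for *Cox6b1*. Of the genes that share stretches with *Cox7c*, 2 had FPKM values listed. None of those for *Cox6a1*, *Cox7a2l*, *Cox5a*, *Cox5b* or *Cox6c* was listed. *Cox4i1* shared 12.2% with *Emc8*, whose FPKM ranged from 11.9 to 12.5, and *Cox6a2* shared 3.33% with *Itgad*. The library kit is not stated to keep strand, so reads from overlapping genes cannot be told apart there. *Cox8b* and *Cox7a1* have short transcripts of 360 and 393 bases, for which FPKM depends most on the length correction of the quantifier.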

How the data were processed

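RNA-seq was done by the authors on polyadenylated RNA of ingWAT, with 2 Ctrl and 2 cKO libraries and single-end reads of 50 bases. The deposited table gives the FPKM of each gene in each library, made by the authors. The submitters' processing notes name HISAT2 2.0.4, RSEM 1.2.12 and the build mm10; no scaling between libraries is given in the sources used here. Samples were matched to genotypes by their titles.

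Low FPKM values of 309 short RNA genes (400 bases or fewer, 6 reads or fewer) come in steps of 1 read, from which the depth of each library was computed after 36 bases were taken from each length. Within 0.1 read, 83.5% to 87.5% of these values were whole, and the largest error on simulated libraries was 2.33%. Reads behind a value follow from this depth and the GENCODE transcript length.

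Genotypes were compared with limma 3.58.1 (R 4.3.3, eBayes with a trend, two-sided) on log2(FPKM + 1), which was tested on simulated data. Alternatives changed the pseudocount, filter, scaling, variance model, block and libraries. Other steps used Python 3.11.15 (numpy 2.4.6, pandas 2.3.3, scipy), and figures matplotlib 3.10.9. Promoters come from RefSeq and coding sequences from GENCODE.

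The members and lists were chosen with earlier results of these data known. Named genes are the 9 isoform genes, the other complex IV subunits, *Slc22a3*, and the 3 genes nearest in profile to each tissue-specific isoform. The assembly factors and single markers named with values were chosen after their values were seen.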

Additional observations from a re-analysis of the deposited data

How the results depend on the processing

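The log2 fold changes of the 9 isoform genes kept their sign in 62 of 63 alternatives; that of *Cox4i2* was -0.06 without cKO replicate 2. *Cox6a2* had -3.62 with a pseudocount of 0.1, and with quantile normalization *Cox7a2* had 0.20 and *Cox8a* 0.10, against 0.30 and 0.17 as reported. Without 1 library in turn, *Cox7a1* ranged from 1.29 to 1.68, *Cox8b* from 0.77 to 1.05 and *Cox6a2* from -3.19 to -2.69. The log2 balance of *Cox6a2* over *Cox6a1*, -4.19 as reported, was -3.41 with a pseudocount of 1 and -3.28 with quantile normalization, which was made on log2(FPKM + 1). Without a filter on low values, which tests 19030 genes, 667 genes were called higher and 1095 lower, 1 other complex IV subunit was higher and 0 lower, and 2 assembly factors were higher. With quantile normalization 3 other subunits were higher; the cause was not tested.

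Without 1 library in turn, which leaves 1 library assumed to vary like the others, 303 to 1072 genes were higher and 484 to 1379 lower, with both lowest counts without Ctrl replicate 1. Other subunits called higher ranged from 1 without Ctrl replicate 1 and 2 without Ctrl replicate 2 to 6, those called lower from 0 without either Ctrl library to 1, and assembly factors called higher from 0 without Ctrl replicate 1 to 6. The replicate numbers did not pair the libraries (r = 0.015 across genes); with a replicate block 1594 genes were higher and 1789 lower, and 6 other subunits and 8 assembly factors were higher. Depth limits *Cox6a2* in cKO, at about 14 and 13 reads.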
